A study of Mus musculus with 8 samples.

Results

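Collagen chain genes were taken as the protein-coding genes of the deposited tables whose symbol has the form Col, a type number, a and a chain number. This gave 44 genes of 41457 listed, and the rule used no measured value. They were followed in wildtype C57BL/6 keratinocytes (KCs) from the tails of adult mice. The KCs were grown untreated in serum-free SFM KC medium with 0.06 mM Ca++ for 1 week (n = 4) or 3 weeks (n = 4), and their poly(A) RNA was sequenced. The cells came from dispase-separated epidermis, were plated on coated dishes without a sort and were split when nearly confluent, so other skin cells could be carried along. The labels call the samples of each time independent experiments. The comparison asks which collagen RNAs differed between KCs cultured for 1 week and for 3 weeks.

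Collagens are trimers of chains that wind around each other as a triple helix. Fibrillar collagens (types I, II, III, V and XI among others) form the fibers of dermis and cartilage and are made mostly by fibroblasts and chondrocytes. Basal KCs help to build the basement membrane below them: type IV chains form its network, type VII forms the anchoring fibrils that tie it to the dermis, and type XVIII is a proteoglycan of it. Type XVII is a transmembrane protein of the hemidesmosomes that hold basal KCs on this membrane.

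The start regions of 3 members and 1 pair are shown, picked for the place of these genes in the results. No link between the sequences and the results was tested. Col11a1 had the largest change, Col18a1 and Col17a1 were the most abundant members, and Col4a4 and Col4a3 lie head to head. Sequences are from RefSeq (GRCm38.p6), written 5′ to 3′ on the gene's strand and, for the pair, on the plus strand. They hold up to 250 bases before the RefSeq start, without bases inside the gene's listed span. Capitals mark matches on either strand. The GC box was searched as GGGCGG. The CCAAT box was searched by the letters of its name. The TATA box was searched as TATAAA and the AP-1 site as TGANTCA, and none of the marked matches overlap.
Col11a1, chr3:114030290-114030539, plus strand: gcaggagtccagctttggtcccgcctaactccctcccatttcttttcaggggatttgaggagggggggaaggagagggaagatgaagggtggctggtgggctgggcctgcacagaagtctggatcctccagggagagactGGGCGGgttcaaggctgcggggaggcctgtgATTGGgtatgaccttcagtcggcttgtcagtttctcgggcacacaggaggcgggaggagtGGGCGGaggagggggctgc
Col18a1, chr10:77166549-77166780, minus strand: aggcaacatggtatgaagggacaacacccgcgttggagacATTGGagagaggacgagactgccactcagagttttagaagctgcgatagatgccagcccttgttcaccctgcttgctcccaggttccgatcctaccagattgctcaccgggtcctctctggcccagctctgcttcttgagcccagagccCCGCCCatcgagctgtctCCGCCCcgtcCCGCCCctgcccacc
Col17a1, chr19:47692095-47692292, minus strand: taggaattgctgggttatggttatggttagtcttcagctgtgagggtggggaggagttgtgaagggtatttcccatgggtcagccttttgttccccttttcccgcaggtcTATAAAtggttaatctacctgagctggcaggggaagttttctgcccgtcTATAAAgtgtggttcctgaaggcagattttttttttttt
Col4a4 to Col4a3, chr1:82586850-82586920, the 71 bases between the listed starts: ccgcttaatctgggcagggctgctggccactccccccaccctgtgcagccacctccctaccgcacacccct
The Col11a1 region held 2 GC boxes and 1 CCAAT box, and the Col18a1 region shown held 3 GC boxes and 1 CCAAT box. Another RefSeq start of Col18a1 lies inside its listed span and is not shown. The window before that start (chr10:77113706-77113955) held no match of any of the motifs searched. Which start the KCs used was not tested. The Col17a1 region had no GC box and held 2 TATA boxes. The short stretch between Col4a4 and Col4a3 held none of these letters. Of all 32851 windows of 250 bases in the table, 32.7% held a GC box, 33.8% a CCAAT box, 12.4% a TATA box and 6.7% an AP-1 site. Of the 38 windows of 35 members with an entry, 22 held a GC box, 13 a CCAAT box, 5 a TATA box and 1 an AP-1 site.

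Each sample had between 13896807 and 20026084 reads in exons, and between 13811 and 60279 of these fell on collagen genes. KC markers were high in every sample, with Krt14 between 4465 and 7628 RPKM (reads scaled by exon length and library total). The summed level of 12 KC markers was 14980 to 17720 RPKM at 1 week and 10590 to 12020 RPKM at 3 weeks, with no overlap. Of these markers Krt5 (-1.32 ± 0.18) and Itga6 (-0.75 ± 0.24) were lower at 3 weeks on the log2 scale, Epcam (0.74 ± 0.15) was higher, and the part of these changes in the collagen results was not tested. The 3 weeks replicate 3 sample stood apart from the other 3 weeks samples. Among 12590 genes tested, its genes with exons over 8 kb lay 0.43 below the other 3 weeks samples on the log2 scale at the median, and those under 1 kb lay 0.48 above. Replicates 1 and 4 at 3 weeks tilted the other way, with long genes 0.18 and 0.30 above. The 1 week samples tilted too. In 1 week replicate 1, genes over 8 kb lay 0.18 below the other 1 week samples and those under 1 kb lay 0.17 above. Most collagen RNAs are long: 21 of the 24 tested members (87.5%) had over 6000 exon bases, against 30.85% of all genes tested. Replicate 3 was the lowest 3 weeks sample for 14 of these 24 members, and replicate 4 was the highest for 16. At 1 week, replicate 1 was the lowest sample for 15 of the 24. Results with a length correction and without single samples are therefore given beside the values they change.

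**Figure D1:**
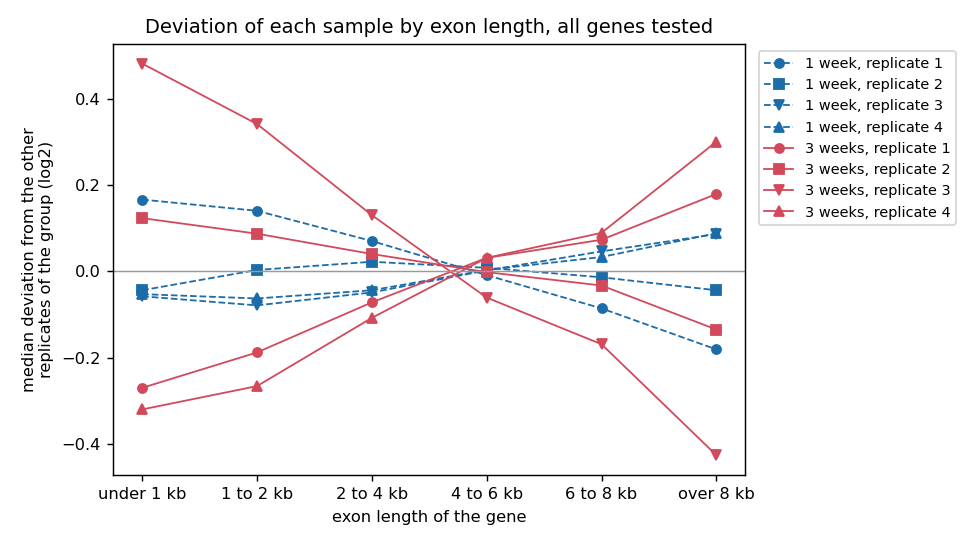
Median deviation (log2) of each sample from the other replicates of its group, by exon length of the gene, over all 12590 genes tested; each line is a sample, dashed for 1 week and solid for 3 weeks. The 3 weeks replicate 3 line falls from 0.48 under 1 kb to -0.43 over 8 kb, while 3 weeks replicate 4 rises from -0.32 to 0.30.

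Of the 44 members, 24 passed the filter on low counts. Col6a5, Col13a1, Col19a1 and Col22a1 had no read in any sample. Another 11 members had 1 to 13 reads over all 8 samples: Col6a4, Col6a6, Col28a1, Col24a1, Col25a1, Col9a1, Col9a2, Col10a1, Col14a1, Col11a2 and Col8a2. The other 5, Col15a1, Col20a1, Col23a1, Col27a1 and Col4a6, had over 50 reads in all. The highest level among these 20 members was 0.529 RPKM, in Col4a6 at 3 weeks in replicate 4, with 62 reads against 0 to 2 in the other 3 weeks samples.

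In the edgeR test across all genes, 8 of the 24 tested members (33.3%) were higher at 3 weeks and 2 (8.33%) were lower. Among all genes tested, 15.7% were called higher and 17.0% lower. The median log2 fold change was 0.70 over the 24 members and 0.03 over all genes tested. On the log2(RPKM + 0.1) scale, which has no composition scaling and shrinks changes of low genes, these medians were 0.26 and -0.16. The RPKM ranges of the groups did not overlap for 3 members higher and 2 lower at 3 weeks, against 10.8% and 26.2% of all genes tested. Of the 3 higher, Col5a2 was barely apart, with 1.238 RPKM in both its highest 1 week and its lowest 3 weeks sample. Without 3 weeks replicate 3, 11 of 25 members (44.0%) were called higher and 2 (8%) lower, against 17.1% and 20.8% of 12799 genes. Without replicate 4, 5 were higher and 4 lower, against 17.8% and 18.7% of genes tested. With a length correction, added after seeing the data, 9 were higher and 2 lower, against 16.4% and 18.9%. In limma on log2(RPKM + 0.1) 3 were higher (Col11a1, Col5a2 and Col9a3) and 3 lower (Col6a1, Col6a3 and Col26a1), against 10.4% and 24.5% of genes tested. On log2(RPKM + 1) 3 were higher, against 10.2%.

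**Figure D2:**
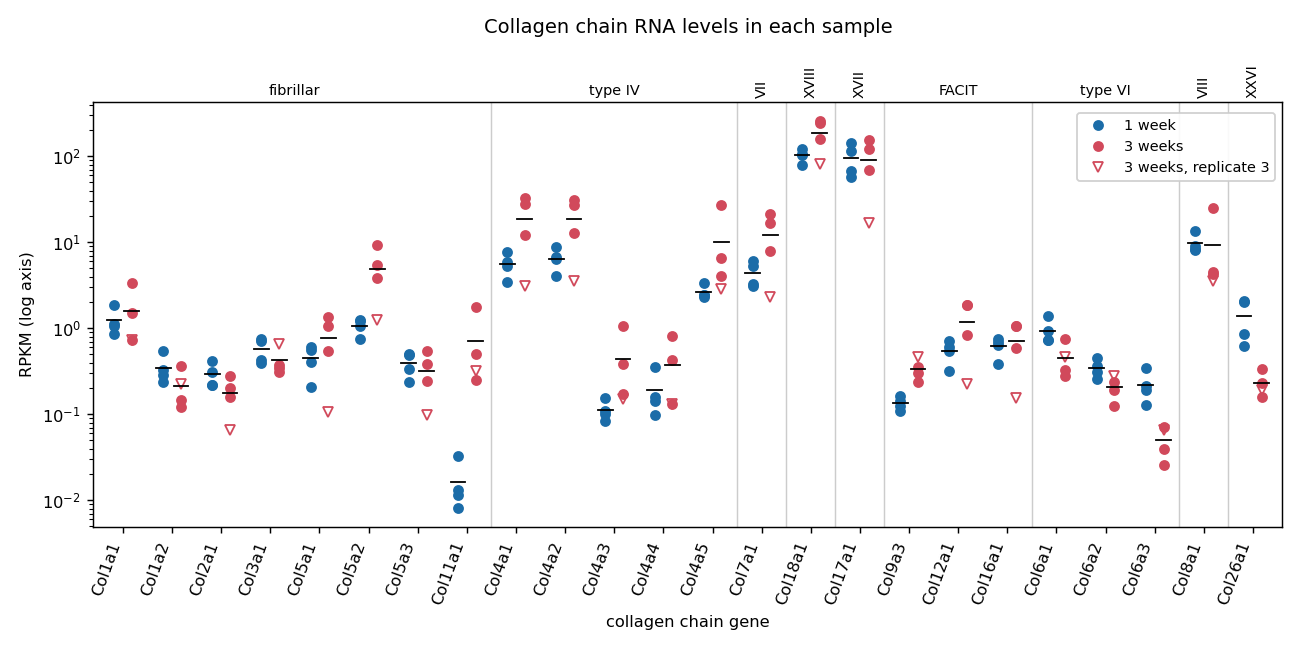
RPKM (log axis) of the 24 tested collagen chain genes in each of 8 samples, ordered by class (Roman numerals name collagen types); dots are samples, open triangles are 3 weeks replicate 3 and black bars are group means. Col18a1 and Col17a1 lie far above the other members, and in 14 members the open triangle is the lowest 3 weeks sample.

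The RNA of collagens in these KCs was mostly of types XVIII and XVII. Together Col18a1 and Col17a1 made up 72.3% to 87.0% of the summed RPKM of the 44 members in each sample. Basement membrane members had a summed level of 92.4, 125.0, 147 and 124 RPKM at 1 week and 325, 195, 94.5 and 372 RPKM at 3 weeks. Fibrillar members summed to 3.87 to 5.74 RPKM at 1 week and 3.50 to 13.5 RPKM at 3 weeks.

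Of 9 basement membrane members 7 were tested, and 5 (71.4%) were higher at 3 weeks in edgeR. Of all genes tested, 15.7% were called higher and 17.0% lower. The median log2 fold change was 1.65 over these 7 members and 0.03 over all genes tested. None of the 7 was lower in edgeR, even at an unadjusted p of 0.05, or in DESeq2. None of the 5 passed in limma on log2(RPKM + 0.1) or log2(RPKM + 1), with adjusted p from 0.0965 to 0.186. Col18a1 was the most abundant. Its levels were 79.1, 106, 121 and 104 RPKM at 1 week and 246, 158, 82.3 and 257 RPKM at 3 weeks. Replicates 1, 2 and 4 at 3 weeks lay above every 1 week sample, and replicate 3 lay within the 1 week range. Col18a1 was higher at 3 weeks by 1.00 ± 0.30 on the log2 scale (adjusted p = 0.0332, edgeR). It kept the call with 3 weeks replicate 3 left out (1.20, adjusted p = 0.00406) and with replicate 2 left out, and lost it without any other sample, as with 3 weeks replicate 4 left out (adjusted p = 0.0607). Col18a1 lies at chr10:77052178-77166548 on the minus strand, and 68.0% of its exon reads were uniquely mapped.

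The main type IV chains, Col4a1 and Col4a2, form the heterotrimers common to basement membranes. Col4a1 had 3.43, 5.30, 7.74 and 5.92 RPKM at 1 week and 27.6, 12.1, 3.14 and 32.4 RPKM at 3 weeks. Col4a2 had 4.07, 6.41, 8.76 and 6.68 RPKM at 1 week and 26.8, 12.7, 3.53 and 31.4 RPKM at 3 weeks. In both, 3 of the 3 weeks samples lay above every 1 week sample and replicate 3 lay below all of them. Col4a1 was higher by 1.88 ± 0.58 (adjusted p = 0.0348) and Col4a2 by 1.65 ± 0.54 (adjusted p = 0.0432) on the log2 scale in edgeR. Without replicate 3 they were higher by 2.20 (adjusted p = 0.00334) and 1.97 (adjusted p = 0.00388). Without replicate 4 at 3 weeks neither passed, at 1.499 (adjusted p = 0.0704) and 1.30 (adjusted p = 0.0889); any 1 week sample or 3 weeks replicate 1 left out also ended both calls (adjusted p from 0.054 to 0.119), and 3 weeks replicate 2 left out ended that of Col4a2 (0.0542).

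The genes face each other on chromosome 8, Col4a1 on the minus strand (chr8:11198423-11312826) and Col4a2 on the plus strand (chr8:11312805-11449287), and their listed spans share 22 bases. The ratio of their RPKM was 0.827 to 0.886 at 1 week and 0.889 to 1.03 at 3 weeks. With uniquely mapped reads alone, 74.2% of Col4a1 and 94.9% of Col4a2 reads, the ratios of the groups overlapped.

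Col4a5 pairs with Col4a6 or with Col4a3 and Col4a4 in other type IV trimers. Its levels were 2.42, 3.32, 2.44 and 2.30 RPKM at 1 week and 6.56, 4.01, 2.88 and 27.1 RPKM at 3 weeks. Replicate 4 was far above the other 3 weeks samples, and replicate 3 overlapped the 1 week samples. Col4a5 was higher by 2.08 ± 0.63 on the log2 scale (adjusted p = 0.0332, edgeR). Without replicate 4 the change was 0.94 and still passed (adjusted p = 0.0182), and it was lost when any 1 week sample was left out (adjusted p from 0.0622 to 0.0867). Col4a3 and Col4a4, chains of kidney and lung basement membranes, were low, at 0.0839 to 0.156 and 0.0985 to 0.357 RPKM at 1 week.

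At 3 weeks Col4a3 had 0.388, 0.171, 0.153 and 1.06 RPKM, against 0.1001, 0.156, 0.0839 and 0.108 RPKM at 1 week. The groups overlapped through replicate 3. It was higher by 2.09 ± 0.60 (adjusted p = 0.0264), and by 1.24 without replicate 4 (adjusted p = 0.0341); the call was lost without 1 week replicate 1, 3 or 4 (0.0736, 0.0679 and 0.0668). Only 35.4% of its reads were uniquely mapped, and with unique reads it did not pass the low count filter. Its neighbour Col4a4 did not pass the test (1.11 ± 0.62, adjusted p = 0.204), with 0.430, 0.132, 0.132 and 0.815 RPKM at 3 weeks.

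Col7a1, the anchoring fibril collagen, had 3.07, 3.31, 6.03 and 5.35 RPKM at 1 week and 16.8, 7.91, 2.29 and 21.3 RPKM at 3 weeks. The pattern over samples was that of Col4a1: replicate 3 lay below all 1 week samples and the other 3 lay above them. With all samples Col7a1 did not pass (1.57 ± 0.55, adjusted p = 0.0561, unadjusted 95% interval 0.32 to 2.81). It passed without replicate 3 (1.88, adjusted p = 0.00616), with the length correction (1.32, adjusted p = 0.0429) and in DESeq2 (1.58, adjusted p = 0.01). Col7a1 did not pass in edgeR with any other single sample left out (adjusted p up to 0.144). Neither limma on log2(RPKM + 0.1) nor on log2(RPKM + 1) called it.

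Col17a1, the hemidesmosome collagen, did not pass. It had 57.8, 67.3, 114 and 143 RPKM at 1 week and 121, 70.2, 16.6 and 156 RPKM at 3 weeks. The groups overlapped over most of their range, and replicate 3 at 3 weeks was the lowest of all 8. The log2 fold change was 0.05 ± 0.55 (adjusted p = 0.954), with an interval of -1.20 to 1.30, and the sign changed with the scaling and with samples left out. Changes within that interval were not excluded with these samples. The difference between Col17a1 and Col18a1 in their response was not tested. Of the other transmembrane collagens, Col13a1 had no read, and Col25a1 and Col23a1 had 2 and 56 reads in all.

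**Figure D3:**
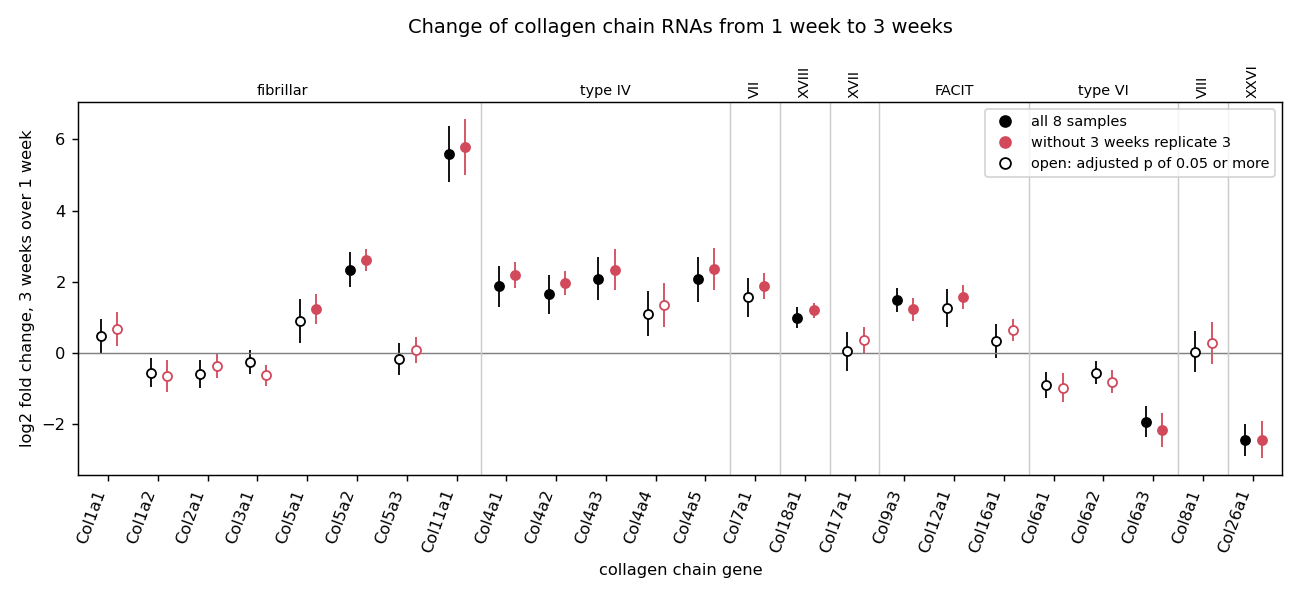
Log2 fold change (3 weeks over 1 week, ± SE) of 24 collagen chain genes with all 8 samples (black) and without 3 weeks replicate 3 (red), from the edgeR fit; filled symbols have an adjusted p under 0.05. Col11a1 stands highest at 5.58, the called type IV genes lie between 1.65 and 2.09, and Col6a3 and Col26a1 are the called genes below 0.

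Among the fibrillar members, 2 of 8 tested were called, both higher (25.0%, against 15.7% of all genes tested). Of all genes tested 17.0% were called lower. The median log2 fold change of the 8 was 0.16, with 4 above 0 and 4 below. Col11a1 encodes a chain of cartilage fibrils that nucleates thin fibers. It had 2, 3, 6 and 3 reads at 1 week (0.00824, 0.0114, 0.0328 and 0.0133 RPKM) and 120, 53, 67 and 330 reads at 3 weeks (0.505, 0.253, 0.320 and 1.76 RPKM). No 1 week sample came near the lowest 3 weeks sample, and replicate 3 did not stand apart here. It was higher by 5.58 ± 0.78 on the log2 scale (adjusted p = 0.00111, edgeR), and by 4.66 without replicate 4. The 1 week level rests on 14 reads; the ratio of summed reads per exon read, 44.1, has an exact 95% counting interval of 26.1 to 81.2. Its level at 3 weeks stayed under 2 RPKM.

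Col5a2, a chain of the type V trimers that set fiber width, had 1.24, 1.06, 1.21 and 0.757 RPKM at 1 week and 9.20, 3.88, 1.24 and 5.44 RPKM at 3 weeks. Replicate 3 was level with the highest 1 week sample, and the other 3 were all higher. It was higher by 2.34 ± 0.49 (adjusted p = 0.00647, edgeR) and no single sample, when dropped, ended the call. Its partner Col5a1 lay between 0.210 and 0.608 RPKM in the 1 week samples and between 0.108 and 1.36 RPKM in the 3 weeks samples, and did not pass (0.91 ± 0.61, adjusted p = 0.284). Without 3 weeks replicate 3 Col5a1 was 1.24 higher (adjusted p = 0.0448). The RPKM ratio of Col5a1 to Col5a2 was 0.170 to 0.803 at 1 week and 0.0869 to 0.249 at 3 weeks.

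The dermal fiber collagens did not pass. Col1a1 averaged 1.24 ± 0.44 RPKM (SD, n = 4) in KCs cultured for 1 week and 1.58 ± 1.23 RPKM in those cultured for 3 weeks. Its log2 fold change was 0.48 ± 0.47 (adjusted p = 0.466). Col1a2 (-0.54 ± 0.40), Col3a1 (-0.24 ± 0.35), Col2a1 (-0.59 ± 0.40) and Col5a3 (-0.17 ± 0.45) lay on the other side of 0. Type I trimers need 2 chains of Col1a1 for 1 of Col1a2, and the RPKM ratio of Col1a1 to Col1a2 was 2.62 to 4.82 at 1 week and 3.25 to 12.4 at 3 weeks. The sign for Col1a1 changed without 3 weeks replicate 4 (-0.14).

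Of 9 FACIT members, which sit on the surface of fibers, 3 were tested. Col9a3 was higher by 1.49 ± 0.33 (adjusted p = 0.00873, edgeR), with 0.109, 0.126, 0.145 and 0.162 RPKM at 1 week and 0.306, 0.237, 0.458 and 0.353 RPKM at 3 weeks. All 3 weeks samples lay above all 1 week samples, replicate 3 highest, and the call held with each sample left out. It was lost in the 6 samples that share file numbers, with those as a block (1.18, adjusted p = 0.0889). It has 123 reads over all samples, and Tcfl5 overlaps it on the opposite strand. Col12a1, at 0.317 to 0.711 RPKM at 1 week, was not called (1.26 ± 0.54, adjusted p = 0.102) but was without replicate 3 (1.58, adjusted p = 0.00911) and in DESeq2 (adjusted p = 0.043). Col16a1 did not pass (0.35 ± 0.48). Of the untested FACIT members, Col20a1 had 1 to 4 reads at 1 week and 7 to 18 at 3 weeks, and passed when the low count filter was dropped (2.54, adjusted p = 0.0155).

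Of 3 type VI chains tested, which form beaded filaments, 1 fell (33.3%, against 17.0% of all genes tested) and the others did not pass. Col6a3 fell from 0.127, 0.349, 0.215 and 0.194 RPKM at 1 week to 0.0718, 0.0254, 0.0662 and 0.0398 RPKM at 3 weeks. No 3 weeks sample reached the lowest 1 week sample. The change was -1.92 ± 0.43 (adjusted p = 0.00904, edgeR), and it held with each sample left out. Col6a1 (-0.90 ± 0.36, adjusted p = 0.0845) and Col6a2 (-0.55 ± 0.32, adjusted p = 0.219) did not pass; Col6a1 did without 3 weeks replicate 4 (-1.20, adjusted p = 0.0228) and in limma on log2(RPKM + 0.1) (-0.94, adjusted p = 0.0382).

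Col26a1 fell by 2.44 ± 0.44 on the log2 scale (adjusted p = 0.00356, edgeR) and kept the call with each sample left out. It had 2.07, 2.03, 0.622 and 0.860 RPKM at 1 week and 0.335, 0.231, 0.194 and 0.158 RPKM at 3 weeks, with a gap between the groups. Col8a1, a short-chain collagen of vascular and corneal matrices, was the third most abundant member at 1 week. It had 9.18, 13.6, 8.48 and 8.21 RPKM at 1 week and 4.32, 4.56, 3.56 and 24.8 RPKM at 3 weeks. The 3 weeks replicate 4 sample was above every other sample, and the other 3 were below all 1 week samples. With all samples the change was 0.05 ± 0.58 (adjusted p = 0.962). Without replicate 4 it was -1.07 (adjusted p = 0.0033).

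Per the study, KCs of the same batches were cultured for either time, but the labels do not say which samples share a batch. The names of the deposited tables carry a number that occurs at both times for 3 pairs of samples. That such a pair is one batch is assumed here and stated by no label, and the numbers do not always match the replicate numbers. The ratio of 3 weeks to 1 week RPKM within these pairs was 3.11, 1.30 and 2.48 for Col18a1, and 61.3, 7.72 and 132 for Col11a1. The pairs leave out 3 weeks replicate 3 and 1 week replicate 2. With the number as a block, edgeR called 10 members higher and 2 lower, against 10.4% and 14.2% of genes tested. Of the 8 members called with all samples, Col9a3 was lost, and Col4a4 (1.60, adjusted p = 0.0454), Col7a1 (1.70, adjusted p = 0.0281) and Col12a1 (1.60, adjusted p = 0.0269) were added.

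Collagen synthesis needs prolyl and lysyl hydroxylases, chaperones and a large-vesicle export route. Of 23 listed genes of this kind, 21 were tested, 7 (33.3%) rose, 1 (4.76%) fell and 13 did not pass, with a median log2 fold change of 0.41. Of all genes tested 15.7% rose and 17.0% fell. P4ha2, a prolyl 4-hydroxylase subunit, rose by 1.68 ± 0.12 (adjusted p = 0.000164), from 5.46, 5.61, 5.68 and 6.02 RPKM to 16.7, 15.5, 13.7 and 19.7 RPKM. Its 3 weeks samples all lay above its 1 week samples, replicate 3 included. Plod2, which hydroxylates telopeptide lysines, rose by 1.03 ± 0.15 (adjusted p = 0.00129). Fkbp14, a peptidyl-prolyl isomerase of the ER, rose by 1.94 ± 0.26 (adjusted p = 0.000907). Sec23a, a COPII coat protein, rose by 0.81 ± 0.20 (adjusted p = 0.0149), a call lost with the file number as a block (0.69, adjusted p = 0.0543).

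P3h1, a prolyl 3-hydroxylase, rose by 0.65 ± 0.20 (adjusted p = 0.0313), which held only without 1 week replicate 2 or 3 weeks replicate 3 or 4 among the samples left out, and not in limma on log2(RPKM + 0.1) (adjusted p = 0.119). P3h2, which acts on type IV collagen, fell by 1.06 ± 0.32 (adjusted p = 0.033), which held only without 3 weeks replicate 3 or 4. The abundant P4hb (0.01 ± 0.20), Serpinh1 (0.30 ± 0.20), the collagen chaperone HSP47, and Ppib (-0.08 ± 0.18) did not pass. Serpinh1 was called without 3 weeks replicate 4 (0.46, adjusted p = 0.0373).

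Of 20 genes for propeptide cleavage, crosslinking and fibril binding, 15 were tested, 7 (46.7%, against 15.7% of all genes tested) rose and none fell, with a median of 0.63; at an unadjusted p of 0.05 edgeR had 1 lower, DESeq2 called 0 and limma on log2(RPKM + 0.1) called 1 lower. Lox, the main lysyl oxidase that starts crosslinks, had 2.00, 2.62, 1.25 and 0.790 RPKM at 1 week and 53.0, 39.0, 38.1 and 231 RPKM at 3 weeks. It rose by 5.88 ± 0.75 (adjusted p = 0.000723), and by 4.88 without 3 weeks replicate 4. Fn1, fibronectin, had 11.9, 14.1, 28.5 and 11.01 RPKM at 1 week and 930, 314, 101 and 294 RPKM at 3 weeks (4.78 ± 0.68, adjusted p = 0.00117). The lowest 3 weeks sample, replicate 3, still lay above every 1 week sample in both genes.

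Loxl2, another lysyl oxidase that crosslinks type IV collagen, rose by 3.08 ± 0.60 (adjusted p = 0.00487) and Loxl3 by 1.97 ± 0.52 (adjusted p = 0.0177). Loxl3 lost the call without 1 week replicate 1 (0.055) or replicate 4 (0.0532) and in limma on log2(RPKM + 1) (0.066), and rose by 1.44 without 3 weeks replicate 4. Sparc, which binds collagen, rose by 1.99 ± 0.29 (adjusted p = 0.00126), and Bmp1, a procollagen C-proteinase, by 1.71 ± 0.23 (adjusted p = 0.000942). Tll1 (0.41 ± 0.39), Loxl4 (-0.31 ± 0.26) and Bgn (0.45 ± 0.36) did not pass. Tll1 was called without 3 weeks replicate 4 (0.70, adjusted p = 0.037), and Bgn with the file number as a block (0.91, adjusted p = 0.0333).

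Of 10 collagen receptor genes, 6 were tested, 2 (33.3%) rose and 1 (16.7%) fell, against 15.7% and 17.0% of all genes tested. Itga2 encodes the alpha chain of the main collagen-binding integrin of KCs. It had 22.8, 35.6, 34.7 and 35.0 RPKM at 1 week and 14.4, 14.8, 5.23 and 3.68 RPKM at 3 weeks, with no overlap, and fell by 1.60 ± 0.42 (adjusted p = 0.0181), a call lost with the file number as a block (adjusted p = 0.0576). Its partner Itgb1 rose by 0.79 ± 0.17 (adjusted p = 0.00698), from 288 to 364 RPKM at 1 week to 398 to 610 RPKM at 3 weeks. Ddr1, a collagen-binding receptor kinase, rose by 0.77 ± 0.22 (adjusted p = 0.0241), a call lost without any 1 week sample (0.0524 to 0.0718) and in limma on log2(RPKM + 0.1) (0.101). Ddr2 (-0.79 ± 0.34), Mrc2 (-0.08 ± 0.47) and Itga1 (1.15 ± 0.45) did not pass. Itga1 was called without 3 weeks replicate 2 (1.38, adjusted p = 0.045).

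Of 12 collagen-degrading enzymes, 8 were tested and 3 (37.5%, against 15.7% of all genes tested) rose, with a median of 0.35; none was lower in edgeR, even at an unadjusted p of 0.05, or in DESeq2. Mmp15 rose by 1.68 ± 0.35 (adjusted p = 0.00689), Mmp14 by 0.99 ± 0.26 (adjusted p = 0.0172) and Ctsb by 0.81 ± 0.12 (adjusted p = 0.0012). Mmp14 and Mmp15 encode membrane-type matrix metalloproteinases, and Ctsb is a lysosomal protease. The Mmp14 call was lost without 1 week replicate 1 (0.0673) and in limma on log2(RPKM + 0.1) (0.0846). Ctsl (0.37 ± 0.17), Mmp9 (-0.04 ± 0.42) and Mmp2 (-0.38 ± 0.26) did not pass. Mmp2 was called lower without 3 weeks replicate 4 (-0.68, adjusted p = 0.0164).

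**Figure D4:**
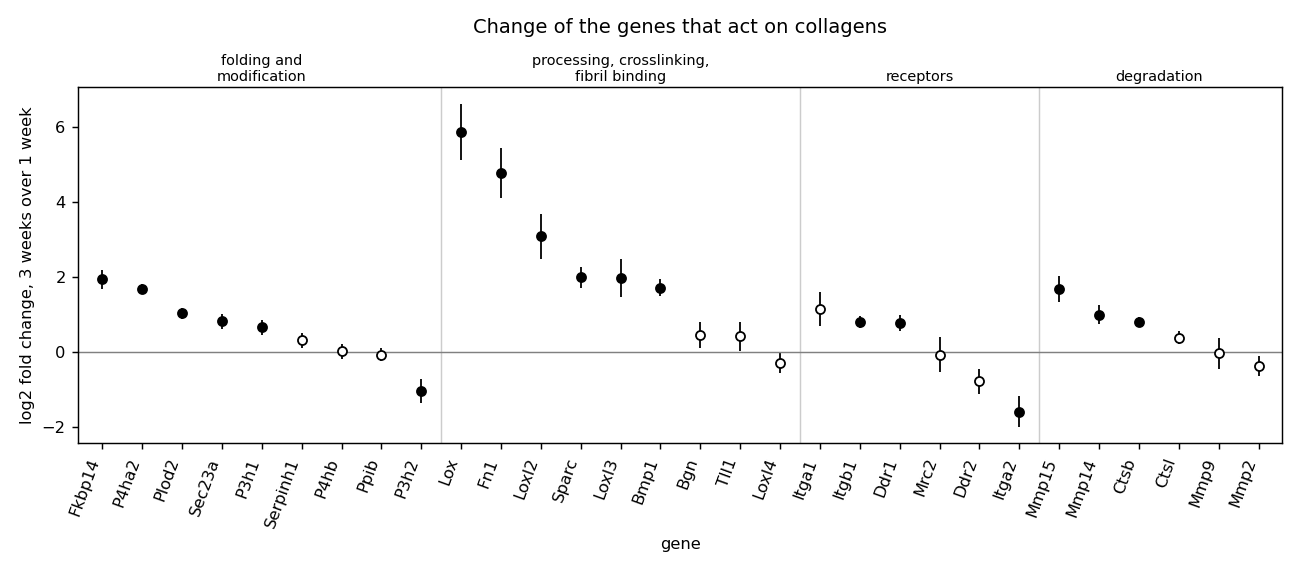
Log2 fold change (3 weeks over 1 week, ± SE, edgeR) of the pathway genes described in the text, grouped by role; filled symbols have an adjusted p under 0.05. Lox at 5.88 and Fn1 at 4.78 stand above the other genes, and P3h2 and Itga2 are the called genes below 0.

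Because KCs were plated unsorted, markers of other cells were measured. Of 16 fibroblast markers 1 was at 0 in all samples and 11 stayed under 1 RPKM, and their summed level was 17.1 to 21.7 RPKM at 1 week and 17.2 to 21.03 RPKM at 3 weeks. Without Vim, Fbln1 and Postn, it was 4.26 to 7.07 RPKM at 1 week and 2.52 to 3.40 RPKM at 3 weeks. Of the 13 tested, Postn rose (4.07 ± 0.49) and Fbln1, Pdgfrb, Prrx1 and Cd34 fell. Of 3 smooth muscle and pericyte markers tested, 2 rose: Acta2 (3.15 ± 0.37), at 138 to 364 RPKM at 1 week and 1112 to 2690.0 RPKM at 3 weeks, and Cnn1 (3.38 ± 0.43), while Cspg4 fell; Des reached at most 0.162 RPKM. Endothelial markers summed to at most 0.571 RPKM in every sample. Melanocyte markers summed to 3.61 to 21.5 RPKM at 1 week and 1.66 to 6.04 RPKM at 3 weeks, with Pmel called lower. Immune markers summed to at most 3.30 RPKM and Schwann cell markers, mostly Mbp, to at most 7.46 RPKM, with none called. Fewer cells of a type and less RNA per cell cannot be told apart in bulk samples, and the part of other cells in the collagen changes was not tested.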

How the data were processed

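Poly(A) RNA-seq libraries of 8 KC cultures were read as single-end reads, and per the paper's methods the authors removed adapter sequence and mapped them to GRCm38 in CLC Genomics Workbench with default settings. The deposited tables hold read counts per gene (total exon reads, with unique exon, intron and gene reads beside them) and the authors' RPKM values, which are scaled by library total and exon length. RPKM is given for levels; it does not correct for composition or for a loss of long transcripts. No other tool or filter is given in the sources used here. All columns of per-sample values in the tables could be assigned to a sample.

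Total exon reads of the 2 groups (n = 4 each) were compared with edgeR's quasi-likelihood test (edgeR 4.0.16, R 4.3.3; filterByExpr, TMM normalization, no block) on the whole table, with Benjamini-Hochberg adjustment over 12590 genes and a threshold of 0.05. The low count filter and the threshold set which members can be called. Log2 fold changes are 3 weeks over 1 week, given ± SE; intervals are 95% and unadjusted. Depth was between 13896807 and 20026084 exon reads. A count of 0 allows up to 3 reads, and intervals on counts cover counting error only. The test was also run on a simulated table of 12590 genes in which only 200 differed between the groups. It recovered 28% of the genes changed 2-fold and 83% of those changed 4-fold. In the real samples it called many more genes, 1981 higher and 2146 lower. The adjustment depends on how many genes change, so these recovery rates may not hold for the real samples. Figures were drawn with matplotlib 3.10.9 in Python 3.11.15.

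Alternatives were DESeq2 1.42.0, limma 3.58.1 on log2(RPKM + 0.1) and log2(RPKM + 1), another normalization, other filters (none, or 10 reads in every sample), other read columns, the replicate number as a block, the number in the names of the tables as a block (6 samples), and each sample left out. Corrections for exon length and GC content (a loess fit of each sample on the gene property, span 0.5) were added after seeing the data. Samples with the same replicate number did not deviate together as a set, so these numbers were not treated as pairs. With so few samples, this check cannot show that none of them shared a batch. The labels call the samples 4 independent experiments. Values in every sample are given for members that passed the threshold or reached a mean of 5 RPKM; from each pathway list up to 6 genes that passed, by size of change, and up to 3 others, by level, are described. Members, classes and lists were chosen with earlier results of these data known.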

Additional observations from a re-analysis of the deposited data

Results flagged for a closer look

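Each group of 4 samples was checked for a sample whose gap to the nearest other took up most of the range. The check covered the 24 tested members and 30 named pathway genes (108 groups). For independent, normally distributed values chance would mark about 1 in 20 groups. These groups share their samples and RPKM need not be normal, so that rate may not apply here. The check marked 9 values. Of these, 5 were in 3 weeks replicate 4: Col4a5 at 27.1 RPKM, Col8a1 at 24.8 RPKM, Col11a1 at 1.76 RPKM, Lox at 231 RPKM and Loxl3 at 0.858 RPKM, each the highest of its group. In 1 week replicate 2, Col4a5 at 3.32 RPKM and Ddr2 at 0.943 RPKM were highest. In 1 week replicate 1, Sparc at 12.2 RPKM and Itga2 at 22.8 RPKM were lowest.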

How the results depend on the processing

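The count of collagen members called higher, 8, was 3 with limma on log2(RPKM + 0.1), 3 with log2(RPKM + 1), and 3 with the replicate number as a block (3 also with the length correction added). It was 4 to 11 with each sample left out. Without 1 week replicate 1, 3 or 4, when it was lowest, 3 of the 8 kept the call and Col20a1 was the fourth. It was highest without 3 weeks replicate 3. The 2 called lower fell to 1 when 10 reads were required in every sample, since Col6a3 was then not tested, and numbered 2 to 4 with samples left out. Synthesis genes called higher (7) fell to 4 with either limma fit and to 4 with the replicate block, and numbered 4 to 11 with samples left out; those called lower numbered 0 to 2. For cleavage, crosslinking and fibril-binding genes, either limma fit called 1 lower. Collagen receptors called higher (2) fell to 1 with either limma fit, to 1 with the replicate block and to 1 with the block and length correction, and numbered 1 to 3 with samples left out; those called lower fell to 0 with 3 shared file numbers as a block. Among collagen-degrading enzymes, total gene reads called 1 lower, and 0 to 1 were called lower with samples left out. Except where a filter removed the gene, the cause was not tested.

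Same-numbered samples did not deviate together as a set (correlations of -0.227, -0.146, -0.146 and 0.249), nor did all samples with the same file number (-0.227, 0.2 and 0.249). Pairs that shared neither number ranged from -0.285 to 0.416. These few correlations cannot show that no samples shared a batch. Under the replicate block Col4a1, Col4a2, Col4a3, Col4a5 and Col18a1 were not called, and the block on the file number (the preparation block) called 10 members higher, without Col9a3.

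The sign changed in results that were not called. Col16a1 was -0.01 with log2(RPKM + 0.1). Col5a3 was 0.192 with the preparation block and -0.56 to 0.088 with samples left out. Col1a1 was -0.14 to 0.75 with samples left out. Col8a1 was -0.001 with upper-quartile normalization, -0.005 without the filter, -0.567 and -0.474 with limma, -0.483 with the replicate block, -0.093 with the preparation block, -0.121 with the length correction, -0.546 with both block and length, and -1.07 to 0.28 with samples left out. Col17a1 was -0.382 and -0.369 with limma, -0.141 with the replicate block, -0.171 with block and length, -0.002 with the GC correction, and -0.32 to 0.37 with samples left out. P4hb was -0.055 without the filter, -0.022 with unique reads, -0.009 with gene reads, -0.187 and -0.187 with limma, -0.021 with the replicate block, -0.193 with the preparation block, -0.01 with block and length, and -0.10 to 0.17 with samples left out. Ppib was -0.25 to 0.037, Mrc2 -0.36 to 0.18 and Mmp9 -0.48 to 0.18 with samples left out; the preparation block gave Mrc2 0.44 and Mmp9 0.16. DESeq2 gave no adjusted p for Col8a1 and Lox.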
